A study of Drosophila melanogaster with 72 samples.

Results

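The unfolded protein response of the endoplasmic reticulum (ER) was followed through 7 genes of Drosophila melanogaster, chosen by name: Xbp1, PEK, crc, Hsc70-3, Gp93, Pdi and Ero1L. All 7 of 7 listed genes were found, by case-sensitive symbol, among the 13557 genes of the deposited table, and all 7 passed the filter on low values in every model. The data are poly(A) RNA-seq of fly heads in which the mutant protein of Huntington's disease, huntingtin with an expanded polyglutamine tract (mHTT), was expressed under a driver for neurons (elav-GAL4) or glia (repo-GAL4). Crossing either driver to an N-terminal fragment or to full-length huntingtin made 4 models, each sampled at 3 ages with its own controls. The 72 libraries formed 24 groups of 3.

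In the glial N-terminal model, flies were repo-GAL4/+ with UAS-HTTNT231Q128/+ and were 5, 7 or 8 days old. Glial full-length flies were repo-GAL4/+ with UAS-HTTFLQ200/+ and were sampled at 18, 20 or 22 days. The neuronal N-terminal model carried elav-GAL4/+ with UAS-HTTNT231Q128/+ at 7, 9 or 11 days. The neuronal full-length model carried elav-GAL4/+ with UAS-HTTFLQ200/+ at 18, 20 or 22 days. Controls carried the driver alone at the same ages. The temperature was 29 °C for the neuronal full-length model with its controls and 28 °C elsewhere, so protein form, age and, for that model, temperature cannot be told apart. For mHTT libraries of that model the titles name days 7, 9 and 11, but the age field and the growth protocol say 18, 20 and 22, which were used. Each library pooled 50 heads, broken from frozen flies by shaking and sieved. A value therefore sums all cells of the head, those outside the driver's reach included, and fewer cells of a type and less RNA per cell cannot be told apart.

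Proteins that enter the ER are folded there with the help of chaperones and of enzymes that form disulfide bonds. When unfolded protein accumulates, sensors in the ER membrane signal to the nucleus and to the translation machinery. IRE1 splices the mRNA of the transcription factor XBP1, PERK (in flies PEK) phosphorylates eIF2alpha, which lowers general translation and favours that of ATF4 (in flies crc), and ATF6 is cleaved to release a transcription factor. The targets include chaperones such as BiP (in flies Hsc70-3) and GRP94 (in flies Gp93), enzymes of disulfide formation such as protein disulfide isomerase (Pdi) and the ER oxidase Ero1 (Ero1L), and the machinery of ER-associated degradation. In the fly eye, photoreceptors make large amounts of rhodopsin in the ER, and misfolded rhodopsin is a known trigger of this response. The values below are levels of whole genes. They do not separate spliced from unspliced Xbp1, and they do not show phosphorylation of PEK or translation of crc.

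The deposited values were scaled by the authors to a 75th percentile of 1000 in each library and are not per length, so levels are compared between libraries and not between genes. From the spacing of low values, libraries were estimated to hold 34.92 M to 46.69 M reads (M, 1e6; median 41.63 M). The fewest estimated reads behind a value were 561 for Ero1L and 916 for PEK, and counting error alone was at most 4.2% of a value. The neuronal gene elav (901 to 2371), the glial gene repo (512.3 to 1351) and the rhodopsin gene ninaE (340100 to 1176000) were detected in all 72 libraries. Replicate 2 of the 11-day neuronal controls stood apart, with a summed value of 39.28 M against 16.61 M to 23.75 M in all other libraries and 3223 genes at 0 against at most 1782. For the neuronal N-terminal model, calls of the 7 genes and counts over gene lists are given both ways where they changed without it.

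Between the 24 groups, the widest ranges of mean levels were those of the ER chaperones Hsc70-3 and Gp93. Hsc70-3, the fly BiP, ran from 6129 ± 254 (SD, n = 3) in 18-day neuronal controls to 13880 ± 3981 in 22-day glial controls, which is 2.265-fold. Both ends of this order were control groups. Gp93, the fly GRP94, ran from 3161 ± 222 in 18-day neuronal controls to 6983 ± 517 in 5-day glial N-terminal mHTT heads, 2.209-fold. Pdi ran from 8398 ± 229 in 20-day glial controls to 14015 ± 174 in 18-day glial full-length mHTT heads, 1.669-fold. Xbp1 spanned 1.597-fold, PEK 1.546-fold, Ero1L 1.407-fold and crc 1.318-fold. For Xbp1 and Ero1L, too, both ends were control groups. When the 24 groups were put in order, nearly all neighbours overlapped in their 3 libraries. Of 23 neighbouring pairs, 2 did not overlap for Hsc70-3 and for PEK, 1 for Xbp1 and for Pdi, and 0 for crc, Gp93 and Ero1L.

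**Figure D1:**
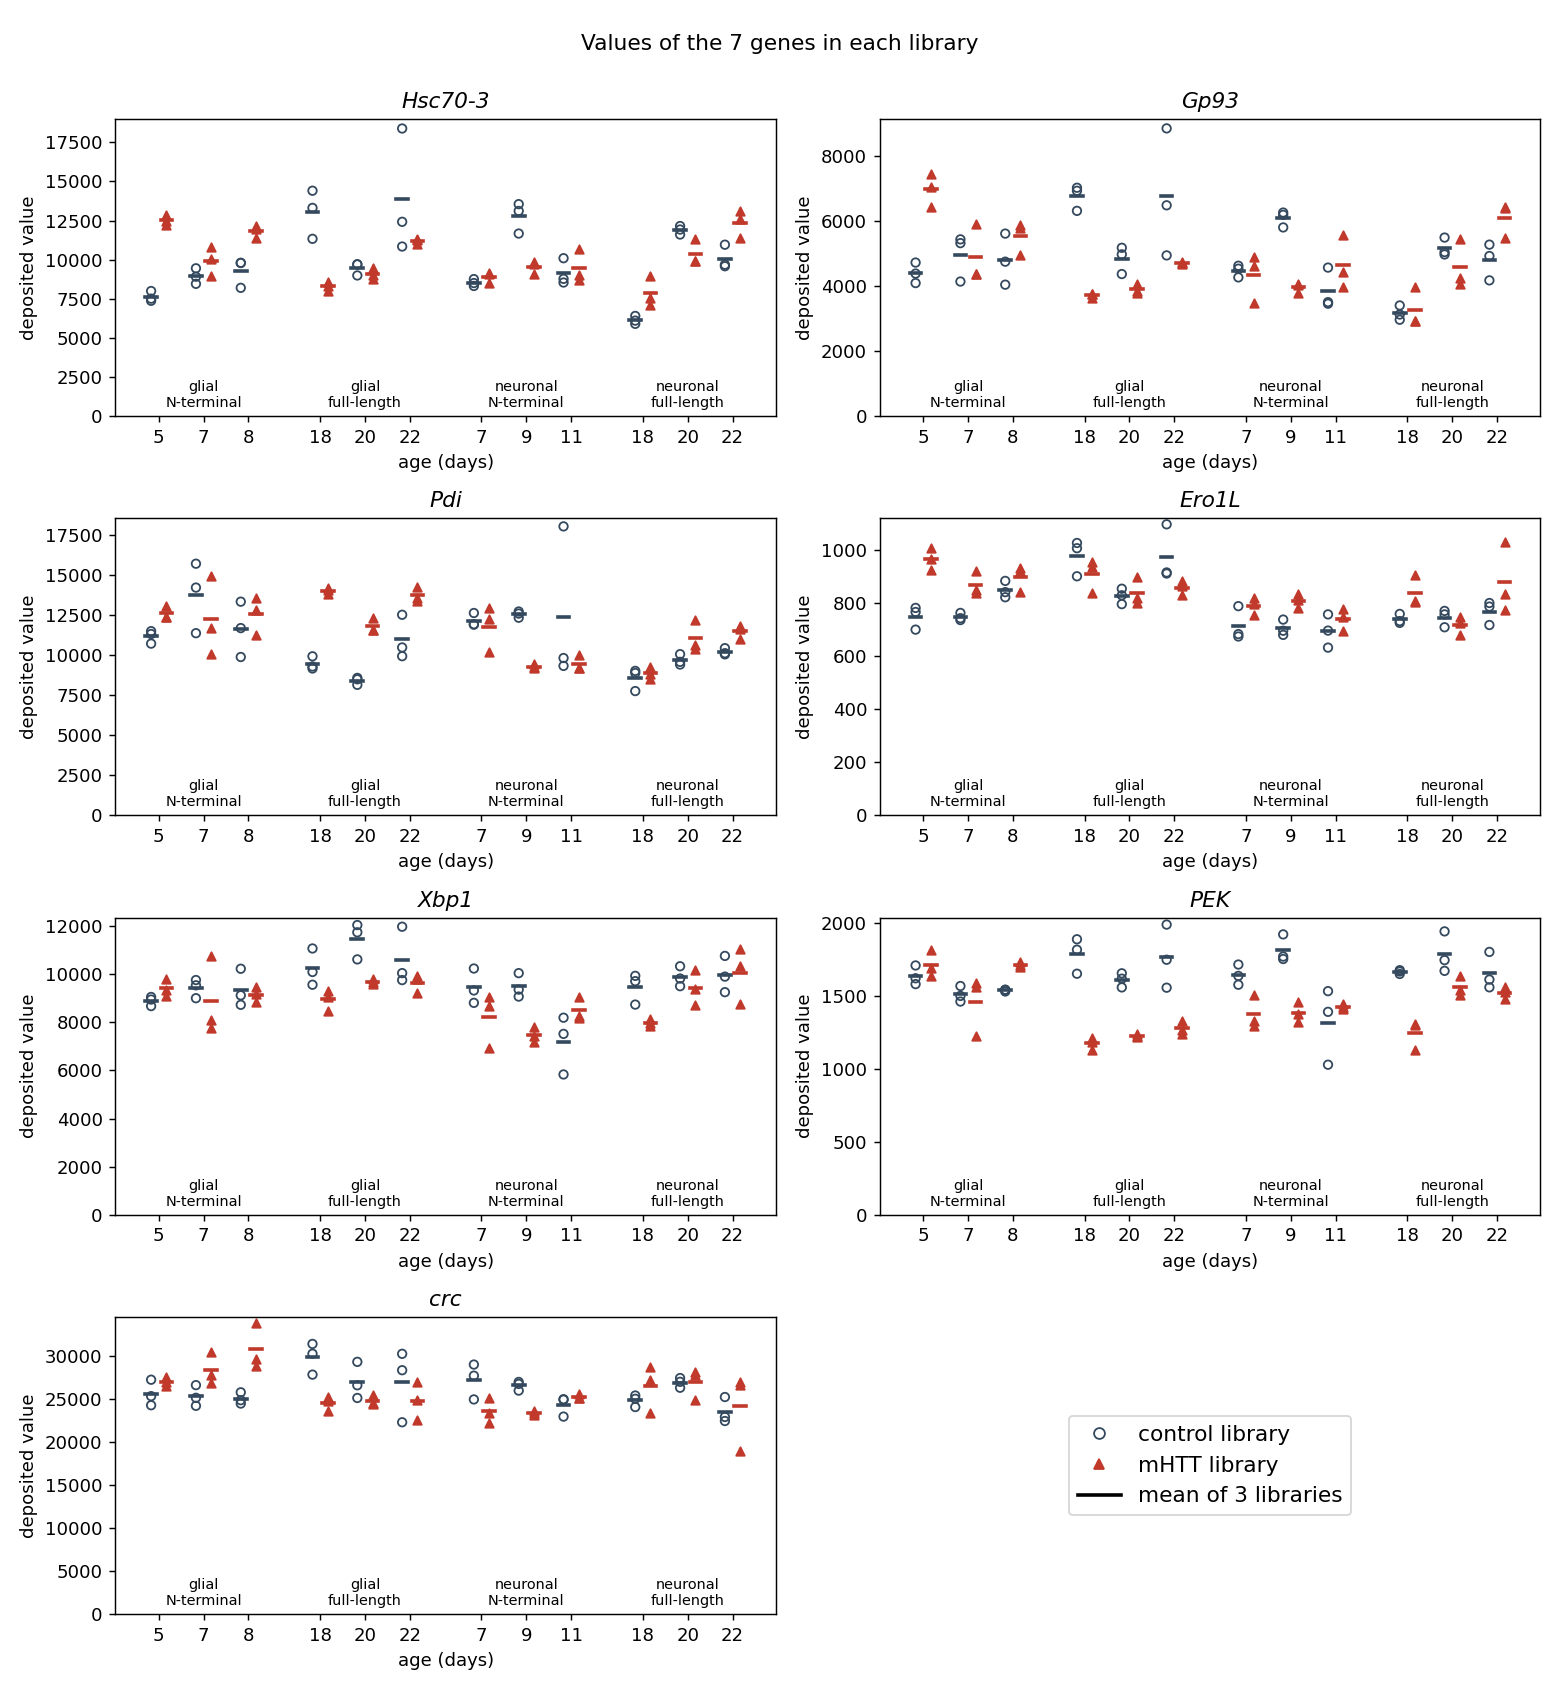
Deposited value (upper-quartile scaled, linear axis from 0) of each of the 7 genes in all 72 libraries, by model and age in days. Open circles are control libraries, filled triangles mHTT libraries and bars the means of 3. In the glial full-length model the PEK triangles (1131 to 1327) lie below all of the control circles (1559 to 1992).

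Chaperone levels also moved between ages among controls of a single driver. Hsc70-3 was 6397, 6097 and 5892 in the 18-day neuronal controls and 11923, 12148 and 11604 in the 20-day ones. In glial controls it was 14406, 13307 and 11329 at 18 days and 8986, 9700 and 9693 at 20 days. The neighbouring ages did not overlap in either driver, and the direction was opposite. These groups differ in age by design and were not tested against each other.

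The first question was whether each gene differed between mHTT and control heads over the 3 ages of a model. Changes are differences of log2(value + 1), mHTT minus control, averaged over the ages, from a limma fit with 18 libraries per model, and a gene was called when its Benjamini-Hochberg adjusted p over all genes was under 0.05. In glial N-terminal heads 4 of the 7 genes were higher and 0 lower, against 32.5% of all 10358 genes tested called in either direction. Of all genes called there, 2109 were higher and 1253 lower, and with the values rescaled by median ratios 1419 were higher and 1592 lower, while 3 of the 7 genes were higher and 0 lower. In glial full-length heads 1 was higher and 5 lower, against 44.4% of 10421 genes. In neuronal N-terminal heads 0 of the 7 were called, against 13.6% of 10162 genes, and without the library that stood apart 4 were called (1 higher, 3 lower), against 36.8%. With all 18 libraries, 4 of the 7 had an unadjusted p under 0.05, as did 25.3% of all genes. In neuronal full-length heads 1 was higher and 1 lower, against 18.9% of 10538 genes. There mHTT replicate 1 of 22 days lay farthest from its group mean over all genes. Its root mean square deviation was 1.05, against a median of 0.234 in the model. Without this library 35.7% of all genes were called. The range of calls of the 7 genes with single libraries left out is given at the end. The median change of the 7 genes was 0.18, -0.19, -0.11 and 0.07 in these 4 models, beside 0.06, -0.04, 0.01 and 0.001 over all genes tested. The library labels begin with 1 of 3 codes, whose meaning the labels do not give. Code and arm were partly confounded. The most frequent code marked 6 mHTT and 3 control libraries in the glial full-length model, and 8 and 5 in the neuronal N-terminal model. It marked no 18-day glial control. With the code as covariate, 40.6% of all genes were called in glial full-length heads. Within the most frequent code alone, 3 of the 7 genes were called in glial N-terminal heads (15 libraries), against 28% of all genes. In the other 3 models (8, 13 and 11 libraries) this code left 1 library in at least 1 group, so no counts are given. With the full-length protein in glia it left 1 of the 22-day controls and covered 2 of the 3 ages. With the fragment in neurons it left 1 of the 11-day controls. With the full-length protein in neurons it left 1 of the 18-day mHTT libraries and 1 of the 20-day controls.

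**Figure D2:**
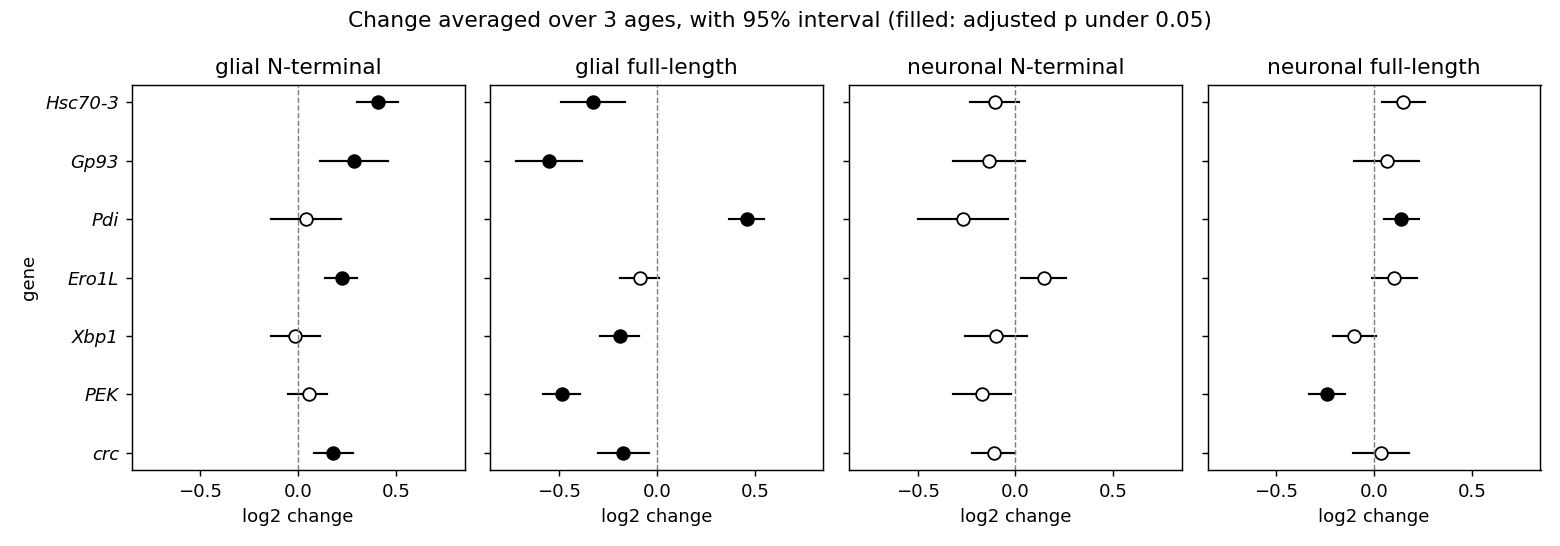
Change of each gene averaged over 3 ages (x axis, difference of log2(value + 1), mHTT minus control) in the 4 models, 9 libraries per arm. Points are estimates, lines 95% intervals, and filled points have an adjusted p under 0.05. Hsc70-3 and Gp93 lie right of 0 in glial N-terminal heads (0.41 and 0.29) and left of 0 in glial full-length heads (-0.33 and -0.55).

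Markers of head cell types moved with these changes in both glial models. In the glial N-terminal model all 6 of 6 glial markers were lower, with a summed level of 19780 to 23250 against 30280 to 36980 in controls. Of 6 photoreceptor markers 4 were higher and 0 lower, at a summed 1362000 to 1928000 against 1038000 to 1218000. Of 6 fat body markers 3 were lower (479900 to 1405000 against 786500 to 2096000), and of 3 haemocyte markers 2 were higher (9935 to 12930 against 6004 to 8545). Of the other lists, 1 of 8 neuronal and 1 of 5 gut markers tested were lower and 0 of 6 muscle markers called. Of all genes, 32.5% were called in this model. Neither arm had a glial, photoreceptor, fat body or haemocyte marker at 0 in all its libraries. Their part in the changes of the 7 genes was not tested.

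In the glial full-length model 5 of 6 fat body markers were higher (a summed 1138000 to 2287000 against 354400 to 754600) and all 3 haemocyte markers were higher (5771 to 9847 against 1800 to 4404). Of 6 glial markers 4 were lower (24070 to 28800 against 25260 to 33620), as were 4 of 6 photoreceptor markers (1064000 to 1596000 against 1012000 to 1602000) and 5 of 8 neuronal markers (41710 to 64650 against 49290 to 67290). All 5 gut markers tested were lower (61.68 to 592.1 against 671.6 to 57020), as were 3 of 6 muscle markers (53630 to 68410 against 50450 to 68400). Of all genes, 44.4% were called in this model. With the fragment in neurons, 5 of 6 fat body markers were lower (716300 to 1511000 against 1137000 to 3253000) and 2 of 6 photoreceptor markers (800600 to 998400 against 1219000 to 1577000). Of the other lists in that model, 1 glial, 1 haemocyte and 1 muscle marker were higher and 1 muscle marker lower, beside 13.6% of all genes called. Without the control library that stood apart, 4 of 6 photoreceptor markers were lower there and 3 of 6 glial markers higher and 1 lower. Without it, 2 of 8 neuronal markers were also higher and 2 lower. Of 6 muscle markers 1 was then higher and 2 lower, against 36.8% of all genes called. In neuronal full-length heads 2 of 3 haemocyte markers were higher (2848 to 8670 against 3057 to 4653), as were 3 of 6 muscle markers (54670 to 75480 against 42330 to 68910) and 1 of 6 fat body markers (531700 to 1484000 against 741500 to 1198000). There 0 of the glial, neuronal, photoreceptor and gut markers were called, beside 18.9% of all genes. The 22-day mHTT libraries of that model spread widely, at a summed 23700 to 53040 for neurons, against 49980 to 53850 in controls. For glia they had 15260 to 29520 against 26350 to 30070, and for photoreceptors 572200 to 1190000 against 1297000 to 1371000. Without the library of that model farthest from its group mean, 35.7% of all genes were called, and marker counts are not given. The part of these markers in the changes of the 7 genes was not tested.

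PEK, the PERK kinase and the sensor among the 7 genes, fell with the full-length protein under both drivers. In glial full-length heads it was 1186, 1211 and 1131 at 18 days, against 1891, 1820 and 1655 in controls. At 20 days it was 1226, 1238 and 1223 against 1621, 1561 and 1658, and at 22 days 1242, 1327 and 1272 against 1559, 1751 and 1992. Every mHTT library was below every control library, whatever the age. The change over ages was -0.48 (SE 0.04, adjusted p = 1.4e-07), or 0.715 times the control level, and PEK was called at each age (-0.60, -0.39 and -0.46). In neuronal full-length heads the change over ages was smaller, at -0.24 (SE 0.04, adjusted p = 0.00105). At 18 days PEK was 1306, 1133 and 1311 against 1670, 1679 and 1653, without overlap and called (-0.42, adjusted p = 0.00283). At 20 and 22 days it was not called (-0.19 and -0.12).

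With the N-terminal fragment, PEK was not called over ages under either driver. In glial N-terminal heads the lowest, median and highest of 9 libraries were 1230, 1691 and 1817, against 1464, 1545 and 1712 in controls, and the change was 0.05 (SE 0.05, adjusted p = 0.423). The lowest of these, replicate 1 at 7 days, was the library of this model farthest from its group mean over all genes. Without it the change was 0.09 (adjusted p = 0.0156). In neuronal N-terminal heads PEK ran from 1296 to 1512 (median 1416), against 1030 to 1925 (median 1640) in controls, and the change was -0.17 (SE 0.07, adjusted p = 0.134). The control library that stood apart held the lowest control value, 1030, and without it the change was -0.23 (adjusted p = 0.000268).

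The gene crc encodes the fly ATF4, the transcription factor downstream of PEK. It rose modestly in glial N-terminal heads and fell modestly in glial full-length heads. In the former it ran from 26499 to 33835 (median 27869) against 24247 to 27282 (median 25177), and the change was 0.18 (SE 0.05, adjusted p = 0.00847). By age it was called at 8 days, where mHTT heads had 28931, 29744 and 33835 against 24898, 25816 and 24508 (0.30, adjusted p = 0.0293). When the values were rescaled by median ratios, the change over ages was 0.12 and was not called (adjusted p = 0.117). In glial full-length heads crc ran from 22597 to 27030 (median 24816) against 22333 to 31447 (median 28387). The arms overlapped, the change was -0.17 (SE 0.06, adjusted p = 0.029), and the call was lost in 8 of 18 fits that left out 1 library, where adjusted p was 0.0503 to 0.0633. crc was called in neither neuronal model (-0.11 with the fragment and 0.04 with the full-length protein). In the reference annotation crc overlaps CG46314 on its own strand, so their reads could be shared.

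Xbp1, the transcription factor of the IRE1 branch, was called with the full-length protein in glia. There it ran from 8476 to 9909 (median 9591) in mHTT heads and from 9561 to 12041 (median 10614) in controls. The change was -0.19 (SE 0.05, adjusted p = 0.00348), and the largest difference was at 20 days (9591, 9800 and 9654 against 12041, 11740 and 10614, -0.24, adjusted p = 0.0426). In the other models the changes were -0.02 (95% interval -0.14 to 0.11) in glial N-terminal, -0.10 (-0.26 to 0.06) in neuronal N-terminal and -0.10 (-0.21 to 0.01) in neuronal full-length heads. None of these was called. Without the control library that stood apart, which held the lowest value of this gene (5832), the neuronal N-terminal change was -0.15 (adjusted p = 0.0454).

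Hsc70-3, the ER Hsp70 chaperone BiP, rose in glial N-terminal heads. At 5 days it was 12489, 12206 and 12869 in mHTT heads, against 7366, 7503 and 7991 in controls. At 7 days it was 8961, 10798 and 10011 against 9445, 8451 and 8906, and at 8 days 12130, 11368 and 11977 against 8195, 9795 and 9782. The groups were separate at 5 and 8 days and overlapped at 7 days. The change over ages was 0.41 (SE 0.05, adjusted p = 9.88e-06), or 1.33-fold. By age it was 0.72 at 5 days (adjusted p = 2.41e-05), 0.15 at 7 days (adjusted p = 0.25) and 0.36 at 8 days (adjusted p = 0.011).

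In glial full-length heads the same chaperone was lower. At 18 days Hsc70-3 was 8312, 8587 and 8005 against 14406, 13307 and 11329, without overlap (-0.64, adjusted p = 0.00275). At 20 days it was 9494, 8992 and 8765 against 8986, 9700 and 9693, and at 22 days 11238, 11298 and 11025 against 12418, 18385 and 10837. The arms overlapped at both later ages, and neither was called (-0.06 and -0.27). At 22 days control replicate 2 held the value of 18385, and the change was -0.05 without it and -0.43 (adjusted p = 0.0174) without control replicate 3. The change over ages was -0.33 (SE 0.08, adjusted p = 0.00321), or 0.798 times the control level.

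In neurons, Hsc70-3 was not called over ages with either form. With the N-terminal fragment it was 9090, 9715 and 9833 against 11666, 13111 and 13547 at 9 days (-0.42, adjusted p = 0.0286). At 7 and 11 days the changes were 0.06 and 0.05, and over ages -0.10 (adjusted p = 0.28). With the full-length protein it was 8976, 7100 and 7526 against 6397, 6097 and 5892 at 18 days (0.35, adjusted p = 0.0248). At 20 days it was 11310, 9924 and 9921 against 11923, 12148 and 11604, so mHTT libraries lay above all controls at 18 days and below all of them at 20 days. The 20-day change (-0.20) was not called, and neither was the 22-day change (0.30, adjusted p = 0.0621). The change over ages was 0.15 (SE 0.05, adjusted p = 0.0585).

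Gp93, the ER Hsp90 chaperone GRP94, had the same signs as Hsc70-3 in both glial models. At 5 days in glial N-terminal heads it was 7460, 7056 and 6433 against 4720, 4381 and 4089 (0.67, adjusted p = 0.00474). At 7 days it was 5914, 4378 and 4361 against 5317, 4136 and 5433, and the change was -0.03. At 8 days the change was 0.21 (adjusted p = 0.449), and over ages 0.29 (SE 0.08, adjusted p = 0.0145). In the glial full-length model it was 3628, 3757 and 3745 at 18 days against 7021, 6928 and 6310, the lowest fold of the 84 member, model and age combinations (0.55 times the control level, -0.86, adjusted p = 0.000233). It did not overlap with controls at 20 days (3850, 4067 and 3778 against 4972, 5174 and 4366, -0.31, adjusted p = 0.136) or at 22 days (4664, 4720 and 4731 against 6481, 8848 and 4940, -0.48, adjusted p = 0.014). Over ages the change was -0.55 (SE 0.08, adjusted p = 3.02e-05), or 0.683 times the control level.

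In neuronal N-terminal heads Gp93 was lower at 9 days, at 3769, 4073 and 4037 against 6187, 5800 and 6258 (-0.62, adjusted p = 0.0286). Over ages its change there was -0.14 (adjusted p = 0.33), and in neuronal full-length heads it was 0.07 (adjusted p = 0.618). In the annotation Gp93 overlaps CG4951 on the opposite strand, and whether counting used strand is not given in the sources used here.

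Pdi, which forms and rearranges disulfide bonds in proteins of the ER, was the member that rose in glial full-length heads. It was 14155, 14071 and 13820 against 9282, 9917 and 9158 at 18 days. At 20 days it was 11532, 12276 and 11527 against 8139, 8571 and 8485, and at 22 days 14240, 13361 and 13566 against 9924, 12507 and 10469. The arms were separate at each age. Averaged over ages, the change was 0.46 (SE 0.04, adjusted p = 1.9e-07), or 1.38-fold, and it was called at each age (0.57, 0.49 and 0.33). Pdi also rose in neuronal full-length heads, by 0.14 (SE 0.04, adjusted p = 0.0348). There it ran from 8506 to 12207 (median 10643) against 7750 to 10425 (median 9571), and the call was lost in 10 of 18 fits that left out 1 library, with adjusted p up to 0.0734.

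With the N-terminal fragment Pdi was not called over ages under either driver. In glial N-terminal heads the change was 0.04 (95% interval -0.14 to 0.22), and it turned to -0.02 under median-ratio rescaling. In neuronal N-terminal heads the change was -0.27 (SE 0.11, adjusted p = 0.125). The 11-day controls there were 9809, 18016 and 9320, and the highest of these was the library that stood apart. Without it the change was -0.17 (adjusted p = 0.00728). At 9 days Pdi was 9249, 9165 and 9416 against 12322, 12709 and 12580, without overlap (-0.43, adjusted p = 0.289, and 0.000574 without the library that stood apart). Pdi overlaps the antisense RNA gene asRNA:CR45396 in the annotation.

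Ero1L, the oxidase that recharges Pdi, rose in glial N-terminal heads. At 5 days it was 966, 1006 and 922 against 699, 765 and 780 (0.37, adjusted p = 0.00148), and at 7 days 837, 919 and 848 against 742, 735 and 762 (0.22, adjusted p = 0.0349). Neither age overlapped. Under median-ratio rescaling the 7-day change was 0.12 (adjusted p = 0.299). At 8 days it was 918, 932 and 841 against 882, 821 and 840, with overlap (0.08). Over ages the change was 0.22 (SE 0.04, adjusted p = 0.000388), or 1.17-fold. In the other models it was not called: -0.09 in glial full-length (adjusted p = 0.142), 0.15 in neuronal N-terminal (adjusted p = 0.0845) and 0.10 in neuronal full-length heads (adjusted p = 0.194). Without the control library that stood apart the neuronal N-terminal change was 0.12 (adjusted p = 0.0257). Pdi and Ero1L, partners in disulfide formation, were called together in 0 of the 4 models with all libraries, and in opposite directions in neuronal N-terminal heads without that library.

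**Figure D3:**
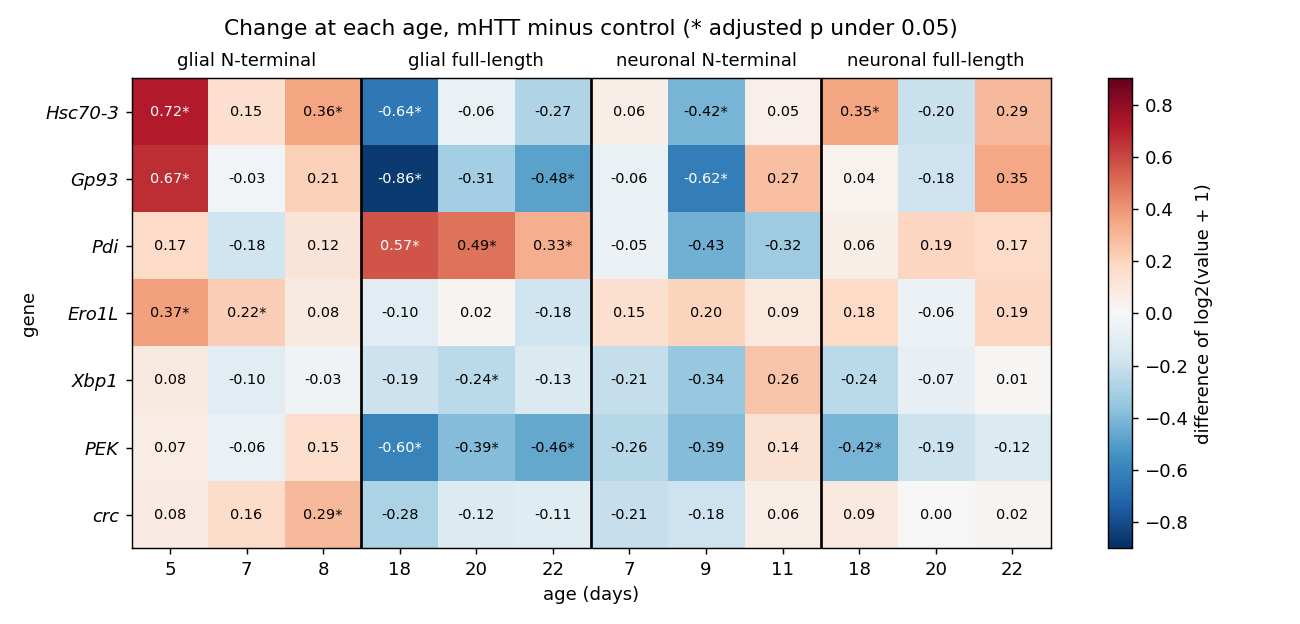
Change of each gene at each age (colour and printed value, difference of log2(value + 1), mHTT minus control, n = 3 against 3), with models separated by black lines. Asterisks mark an adjusted p under 0.05. The darkest cells are Gp93 and Hsc70-3 at 18 days in glial full-length heads (-0.86 and -0.64) and at 5 days in glial N-terminal heads (0.67 and 0.72).

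Of 84 tests at single ages 20 were called, 9 of them at the first age of a model. In glial N-terminal heads 3 genes were called at 5 days (13.5% of all genes), 1 at 7 days (17.8%) and 2 at 8 days (10.5%). With the full-length protein in glia, 4 were called at 18 days (20.2% of all genes), 3 at 20 days (20.4%) and 3 at 22 days (31.5%). In the neuronal N-terminal model 0 were called at 7 days (1.98%), 2 at 9 days (4.32%) and 0 at 11 days (7.77%). These counts were, without the control library that stood apart, 1 (14.2%), 6 (23.8%) and 1 (18.6%). The calls gained were PEK at 7 days (-0.26, adjusted p = 0.0142), Xbp1 (-0.34), PEK (-0.39), Pdi (-0.43) and Ero1L (0.20) at 9 days, with adjusted p of 0.0118, 0.000453, 0.000574 and 0.0446, and Gp93 at 11 days (0.40, adjusted p = 0.0435). In neuronal full-length heads 2 were called at 18 days (9.20%), 0 at 20 days (4.14%) and 0 at 22 days (7.65%). Of these 20 calls, 12 held in each of the 18 fits of their model that left out 1 library, among them those of PEK and Pdi in glial full-length heads and of Hsc70-3, Gp93 and Ero1L at 5 days. Leaving out a library of another age left the change itself as it was and altered only the shared spread and the adjustment. The calls lost in at least 1 fit were those of crc and Hsc70-3 at 8 days and Ero1L at 7 days in glial N-terminal heads (adjusted p up to 0.128, 0.063 and 0.0954), Xbp1 at 20 days and Gp93 at 22 days in glial full-length heads (0.143 and 0.0504), Hsc70-3 and Gp93 at 9 days in neuronal N-terminal heads (0.124 and 0.112) and Hsc70-3 at 18 days in neuronal full-length heads (0.118). Gp93 at 22 days was -0.27 without control replicate 2. Leaving out 1 library also gave calls to genes that had none. In glial N-terminal heads without mHTT replicate 1 of 7 days these were Xbp1 at 7 days and PEK at 8 days. In glial full-length heads without 1 of the 22-day controls they were crc at 18 and 22 days, Gp93 at 20 days and Hsc70-3 at 22 days. For the full-length protein in neurons they were Xbp1 and Ero1L at 18 days without mHTT replicate 1 of 22 days, and Hsc70-3 at 22 days without mHTT replicate 1 of 18 days or replicate 2 of 22 days. For the fragment in neurons, without control replicate 3 of 11 days, they were PEK at 9 days and Pdi at 11 days. Whether the change itself differed among the 3 ages was tested with an F test in each fit. It was called for 0 of the 7 genes in each model, beside 0.270%, 0.864%, 0.00984% and 0.731% of all genes in the order above. The nearest were Hsc70-3 in neuronal full-length heads (adjusted p = 0.0793) and in glial N-terminal heads (adjusted p = 0.119). The unadjusted p was under 0.05 for 3 genes in glial N-terminal, 2 in glial full-length, 4 in neuronal N-terminal and 3 in neuronal full-length heads, beside 7.9%, 11.2%, 6.65% and 12.5% of all genes.

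The second question was whether the change differed between models, tested in 1 fit of all 72 libraries. Between the glial models, N-terminal minus full-length, 6 of the 7 genes differed, against 28.1% of 10976 genes. Hsc70-3 differed by 0.73 (SE 0.09, adjusted p = 1.11e-09), Gp93 by 0.84 (SE 0.12, adjusted p = 1.36e-07) and PEK by 0.54 (SE 0.07, adjusted p = 2.99e-08). crc and Ero1L differed by 0.35 and 0.31, and Pdi in the opposite direction by -0.42. Xbp1 was not called (0.17, 95% interval 0.01 to 0.34, adjusted p = 0.123).

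For the full-length protein, neurons minus glia, 6 of the 7 differed, against 21.0% of all genes. Gp93 differed by 0.62 (SE 0.12, adjusted p = 6.39e-05) and Hsc70-3 by 0.48 (SE 0.09, adjusted p = 2.31e-05). PEK differed by 0.24, crc by 0.21 and Ero1L by 0.19, and Pdi by -0.32. Xbp1 was not called (0.09, 95% interval -0.08 to 0.25). For the N-terminal fragment, neurons minus glia, the changes of 5 of the 7 genes differed, against 29.6%, and all 5 differences were negative. They were Hsc70-3 (-0.51), Gp93 (-0.42), Pdi (-0.31), crc (-0.29) and PEK (-0.22). Ero1L (-0.08, 95% interval -0.21 to 0.05) and Xbp1 (-0.08, -0.25 to 0.08) were not called. In neurons, N-terminal minus full-length, 2 differed, against 15.6%: Pdi (-0.41, adjusted p = 0.00541) and Hsc70-3 (-0.25, adjusted p = 0.0377). With 1 of the 72 libraries left out at a time, 15 of the 19 calls between models held in every fit. A difference uses the libraries of 2 models, so leaving out a library of another model left its value unchanged. Such fits altered only the shared spread and the adjustment. The exceptions were crc (lost in 54 fits, adjusted p up to 0.101) and Ero1L (5 fits, up to 0.0648) for the full-length protein, Pdi for the fragment (4 fits, up to 0.0629) and Hsc70-3 in neurons (15 fits, up to 0.0779). Under median-ratio rescaling 5 of the 19 were lost: crc (0.19, adjusted p = 0.069) and Ero1L (0.17, adjusted p = 0.0746) for the full-length protein, PEK (-0.14, adjusted p = 0.169) and Pdi (-0.23, adjusted p = 0.0813) for the fragment, and Hsc70-3 in neurons (-0.23, adjusted p = 0.0586). Without the farthest library of each model the Pdi difference for the fragment was -0.15 (adjusted p = 0.0878). In neurons, the 5 genes not called had intervals of -0.16 to 0.17 for Xbp1, -0.30 to 0.01 for crc, -0.07 to 0.22 for PEK, -0.44 to 0.04 for Gp93 and -0.09 to 0.17 for Ero1L.

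Around the 7 genes, 50 other genes of the response were followed in 5 lists. With the fragment in glia, 24 were higher and 3 lower (median change 0.14; 18 and 4 with median-ratio rescaling), and in glial full-length heads 19 were higher and 9 lower (0.07). In the neuronal N-terminal model 0 were higher and 7 lower (-0.06), and in neuronal full-length heads 11 were higher and 3 lower (0.06). Without the control library that stood apart, 4 were higher and 18 lower in neuronal N-terminal heads, against 36.8% of all genes. In the neuronal full-length model 7 to 20 were called when 1 library was left out. Without the library farthest from its group mean, 35.7% of all genes were called in that model. The share called was thus 27, 28, 7 and 14 of 50, to be read beside the 32.5%, 44.4%, 13.6% and 18.9% of all genes.

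The 6 other sensors and translation regulators were mostly not called. Ire1, the kinase that splices Xbp1 mRNA, was lower in glial full-length heads (-0.20, adjusted p = 0.00455), as was PPP1R15, the phosphatase subunit that reverses eIF2alpha phosphorylation (-0.24, adjusted p = 0.00034). CrebA, a transcription factor of secretory genes, was lower in glial N-terminal (-0.28, adjusted p = 0.0489) and neuronal full-length heads (-0.32, adjusted p = 0.0131). The former call was lost in 15 of 18 fits that left out 1 library (adjusted p up to 0.102). Without the control library that stood apart, Ire1 (-0.17) and CrebA (-0.14) were also lower in neuronal N-terminal heads, against 36.8% of all genes called. Atf6, Gcn2 and eIF-2alpha were called in no model.

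Among 17 other ER chaperones and folding factors, 11 were higher and 1 lower in glial N-terminal heads, against 32.5% of all genes called. The calls of Calr and shv were lost in 13 and 7 of 18 fits that left out 1 library, and both under median-ratio rescaling. Cnx99A, a calnexin needed for rhodopsin folding in photoreceptors, had 0.52 (adjusted p = 1.85e-05), CaBP1, a relative of Pdi, 0.51 and the secreted ER protein Manf 0.47. With the full-length protein in glia, 7 were higher and 4 lower, against 44.4% of all genes called. Of 4 disulfide isomerase relatives, picked out after their values were seen, ERp60 (0.35), CaBP1 (0.31) and wbl (0.67, adjusted p = 0.000729) rose there, and prtp was not called (0.06, adjusted p = 0.194). Cnx99A fell (-0.42, adjusted p = 1.19e-06), as did ninaA, the cyclophilin that rhodopsin needs (-0.39, adjusted p = 0.000352). Cnx14D also fell (-1.49, adjusted p = 0.000202), from a mean of 9.80 to 2.90. Both means lie below the filter value of 10, and with a pseudocount of 10 the change was -0.61. The photoreceptor markers that moved beside Cnx99A and ninaA are given above.

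Against 13.6% of all genes called, 3 of the 17 folding factors were lower and 0 higher with the fragment in neurons. These were ninaA (-0.94, adjusted p = 0.00912), Cnx99A (-0.47, adjusted p = 0.000298) and GCS1, the glucosidase that first trims glycans of new proteins (-0.23, adjusted p = 0.0383). Without the control library that stood apart 5 were lower and 3 higher, against 36.8% of all genes called. GCS1 was lower in all 4 models (-0.54, -0.20, -0.23 and -0.17), but its call was lost in 9 of 18 fits that left out 1 library in glial full-length heads and in 12 of 18 in neuronal N-terminal heads (adjusted p up to 0.0859 and 0.0853). With the full-length protein in neurons, 8 were higher and 1 lower, against 18.9% of all genes called. Among the former were wbl (0.86, adjusted p = 2.08e-05) and Uggt, the glucosyltransferase that senses misfolded glycoproteins (0.25, adjusted p = 0.000848). The calls of Calr, ERp60, P58IPK and Manf there were lost in 10, 14, 12 and 11 of 18 fits that left out 1 library.

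Of 14 genes of ER-associated degradation, 6 were higher and 0 lower in glial N-terminal heads, against 32.5% of all genes called. Among the 6 were the derlin Der-2 (0.26, adjusted p = 0.000387) and TER94, the ATPase that extracts proteins from the membrane (0.20, adjusted p = 0.00139). The calls of sip3 and OS9 were lost in 14 and 16 of 18 fits that left out 1 library. Those of sip3, OS9 and Der-1 were lost under median-ratio rescaling. In the glial full-length model 2 were higher and 2 lower, against 44.4% of all genes called. In neuronal N-terminal heads 0 were called, against 13.6% of all genes, and without the control library that stood apart 2 were lower, against 36.8%. In neuronal full-length heads 1 was higher (Ubc7), against 18.9% of all genes called. The call of Ubc7 was lost in 12 of 18 fits that left out 1 library. Of 7 genes of the translocation channel and its partners, 3 were higher in glial N-terminal heads, against 32.5% of all genes called. The call of Sec61gamma there was lost in 6 of 18 such fits and under median-ratio rescaling. With the full-length protein in glia, 6 were higher and 1 lower, against 44.4% of all genes called. Sec61alpha, the channel itself, was at 0.38 (adjusted p = 4.62e-06) and Sec63 at -0.17 (adjusted p = 0.000302). SsRbeta, a subunit of the translocon-associated complex, was higher in both glial models (0.30 and 0.40) and in neuronal full-length heads (0.23, adjusted p = 0.0275), where the call was lost in 5 of 18 fits that left out 1 library (adjusted p up to 0.0611). In neuronal N-terminal heads 2 of the 7 were lower and 0 higher, against 13.6% of all genes called. Without the library that stood apart all 7 were lower, against 36.8%. In neuronal full-length heads 2 were higher and 1 lower, against 18.9%. Sec63 was among the lower ones in both neuronal models (-0.21 and -0.17), and its call in neuronal N-terminal heads was lost in 9 of 18 such fits (adjusted p up to 0.0668). The call of TRAM in neuronal N-terminal heads was lost in 14 of 18, as was that of Sec61gamma in neuronal full-length heads.

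In both glial models the largest rise in the lists was that of 1 of the 6 metabolic and translational targets of ATF4. In the glial N-terminal model Ldh (lactate dehydrogenase) had 569.1 ± 136 against 250.5 ± 101 in controls (SD, n = 9 libraries of 3 ages), a rise of 1.24 (SE 0.13, adjusted p = 2.64e-06). Nmdmc, of mitochondrial one-carbon metabolism, rose by 0.98 and P5cr-2, of proline synthesis, by 0.58, whereas aay, of serine synthesis, fell by 0.56. With the full-length protein in glia, where crc was lower, P5cr-2 (0.78, adjusted p = 7.91e-07) and Shmt, of serine and glycine metabolism (0.76, adjusted p = 2.51e-05), rose and aay rose as well (0.40, adjusted p = 0.00248). With the fragment in neurons, P5cr-2 (-0.98, adjusted p = 0.000208) and Shmt (-0.68, adjusted p = 0.0112) were lower. Without the control library that stood apart, Nmdmc was also called there, as higher (0.40, adjusted p = 0.00399). In neuronal full-length heads 0 of the 6 were called, against 18.9% of all genes. Much of what is known of these genes as ATF4 targets comes from work in larvae and in other species.

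**Figure D4:**
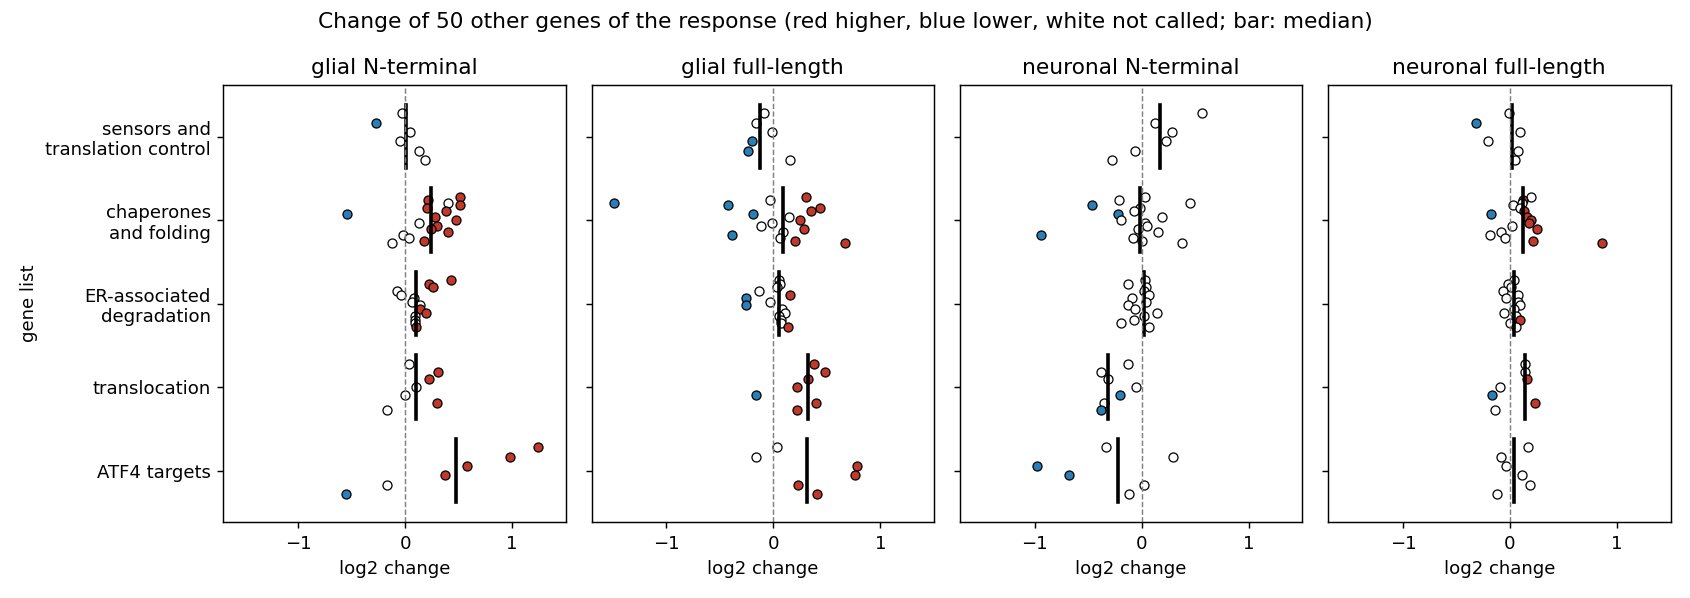
Change of 50 other genes of the response (x axis, difference of log2(value + 1), mHTT minus control, averaged over 3 ages) in 5 lists and 4 models. Red points were higher, blue points lower and white points not called, and black bars are medians of a list. Chaperone and folding genes lie mostly right of 0 in glial N-terminal heads (11 of 17 higher) and on both sides in glial full-length heads (7 higher, 4 lower).

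The 12 changes of a gene, 1 per model and age, also give the pattern it shares with other genes. These are descriptions over 12 differences from 72 libraries, which share library scaling and the makeup of the head. Hsc70-3 and Gp93 were each other's closest match among the 8470 genes with a mean value of at least 100 (Pearson r 0.94), and Herp, an ER protein of degradation, came next for Hsc70-3 after CG9053 (both 0.85). The closest to Xbp1 was the nuclear receptor gene Hr96 (0.96), followed by CG10809 (0.92) and the chaperonin subunit gene Tcp-1zeta (0.89). For crc they were CG9150 (0.94), Cnx99A (0.93) and CG33785 (0.93), and for PEK they were mst (0.95), CG15100 (0.94) and the small heat shock gene Hsp22 (0.93). For Gp93 the next were neur (0.89) and the chaperonin gene T-cp1 (0.87). The closest to Pdi was OstStt3, a subunit of the enzyme that attaches glycans in the ER (0.96), then CG6415 (0.95) and not (0.95). For Ero1L the closest were CG42363 and CG42362 (both 0.89). Among the members, Pdi was the exception in sign: its r with the 6 others ran from -0.53 (Ero1L) to -0.14 (Xbp1), whereas the 15 other pairs ran from 0.17 (Xbp1 and Ero1L) to 0.94. Each r was also placed among those of 1 gene of the pair with all genes of that mean. Pairs with Pdi stood at percentiles 14.7 to 38, inside the common range. The 15 others stood at 59.6 (Xbp1 and Ero1L) to 100 (Hsc70-3 and Gp93), with Xbp1 and Hsc70-3 at 79.3.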

How the data were processed

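The members and gene lists were chosen with earlier results of these data known. Per the submitters' processing notes, CASAVA 1.8.2, Bowtie 0.12.0, RSEM 1.1.19, DESeq2 and build dm3 were used. Their roles, the annotation and the use of strand are not given in the sources used here. The deposited signal values are RSEM gene estimates, and the 75th percentile was 1000 in every library, so the authors had scaled them. All 72 columns matched 1 library. Low values (under 20) fell on multiples of 1 step in 92.01% to 95.38% of cases (tolerance 0.05 of a step), which gave the depth estimate. Of 72 pairs of libraries within groups 0 were identical, and their spread was at least 3.15 times sampling noise. Nothing in the labels says that replicates were separate cultures, so p-values measure the spread between these libraries.

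Values were analysed as log2(value + 1), which understates changes of low genes, with limma (version 3.58.1, R 4.3.3) and a mean-variance trend, on genes with at least 10 in at least 3 libraries. Each model had 6 group means over 18 libraries, and differences between models used 24 group means over 72. The 7 members were named, plus, per model, the 3 called list genes with the largest rise and fall, and, per member, the 3 genes with the most similar changes. List genes named beyond these were chosen after their values were seen. The script was tested on simulated data. Alternatives were a pseudocount of 10, other filters, median-ratio rescaling, a replicate block, the label prefix as covariate, all 72 libraries, leaving out libraries and, added after seeing the data, the most frequent prefix alone. Symbols and overlaps came from the BDGP6 annotation, and no coordinates are given, since the builds differ.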

Additional observations from a re-analysis of the deposited data

Results flagged for a closer look

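The change of a gene differed between models in 19 of 28 tests of the 7 genes (limma, adjusted p under 0.05). All values are differences of log2 changes. For the full-length protein, neurons minus glia, they were 0.475 for Hsc70-3, 0.618 for Gp93, 0.241 for PEK, 0.208 for crc, 0.191 for Ero1L and -0.323 for Pdi. For the N-terminal fragment, neurons minus glia, they were -0.511 for Hsc70-3, -0.421 for Gp93, -0.307 for Pdi, -0.29 for crc and -0.224 for PEK. In glia, N-terminal minus full-length, they were 0.836 for Gp93, 0.733 for Hsc70-3, 0.538 for PEK, 0.35 for crc, 0.309 for Ero1L and -0.424 for Pdi. In neurons, N-terminal minus full-length, they were -0.408 for Pdi and -0.253 for Hsc70-3. Age differs between the N-terminal and full-length models, and their effects cannot be told apart from that of the protein form. Between the drivers, temperature (29 °C in neurons, 28 °C in glia) for the full-length protein and age (7, 9 and 11 days in neurons, 5, 7 and 8 in glia) for the fragment cannot be told apart from the cell type. Groups of 3 are too small for a test of single outlying libraries.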

How the results depend on the processing

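Of 6188 values recomputed for the counts, the 7 genes and the list genes, 5834 kept their direction and call and 51 turned in sign, none of a result that was called. With median-ratio rescaling, changes in glial N-terminal heads were -0.008 for PEK and -0.024 for Pdi, and the neurons minus glia differences for the fragment were 0.001 for Xbp1 and 0.006 for Ero1L, with 3 of the 7 genes called there and 1 in neurons, N-terminal minus full-length. With the label prefix as covariate, neuronal N-terminal heads had 4 members and 25 list genes called over ages, against 41.1% of all genes. The F test among ages called 3 members there, and its share over all genes under this setting is not given. Under the same setting 1 member was called in neurons, N-terminal minus full-length, and Xbp1 differed there by -0.064. The library farthest from its group mean in each model was also left out. For neuronal N-terminal heads this was replicate 2 of the 11-day controls, the only library with its label prefix. Without it 4 members and 22 list genes were called there, against 36.8% of all genes. Among ages 2 members differed, against 3.68%. For neuronal full-length heads it was mHTT replicate 1 of 22 days. Without it 1 member differed among ages, and 35.7% of all genes were called over ages. Changes in glial N-terminal heads were then -0.013 for Pdi and, at 7 days, 0.06 for PEK. PEK was -0.033 in neuronal N-terminal heads at 11 days, and Xbp1 differed by -0.076 between the neuronal models. With all 72 libraries in 1 fit, 3 members were called in neuronal N-terminal and 1 in neuronal full-length heads. With the most frequent prefix alone, Xbp1 was 0.001 in glial N-terminal heads and Gp93 -0.039 in neuronal full-length heads. The cause of these shifts was not tested.

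When 1 library was left out at a time, members called ranged from 0 to 4 in neuronal N-terminal and 1 to 3 in neuronal full-length heads, and list genes called from 4 to 22 and 7 to 20. The share of all genes called moved as well. Without the farthest library it went from 13.6% to 36.8% in neuronal N-terminal heads and from 18.9% to 35.7% in neuronal full-length heads. Members that differed among ages ranged from 0 to 2 in glial full-length (2 without replicate 2 of the 22-day controls), 0 to 2 in neuronal N-terminal and 0 to 1 in neuronal full-length heads, and members that differed between the neuronal models from 1 to 3, with Xbp1 at -0.045 to 0.043. Small changes crossed 0. In glial N-terminal heads the ranges were -0.013 to 0.082 for Pdi, -0.066 to 0.013 for Xbp1, -0.078 to 0.036 for Xbp1 at 8 days, and -0.125 to 0.06 for PEK and -0.173 to 0.047 for Gp93 at 7 days. Ero1L in glial full-length heads at 20 days ran from -0.029 to 0.057. In neuronal N-terminal heads the ranges at 7 days were -0.155 to 0.087 for Gp93 and -0.122 to 0.05 for Pdi, and at 11 days -0.042 to 0.122 for Hsc70-3 and -0.033 to 0.254 for PEK. In neuronal full-length heads they were -0.115 to 0.111 for Gp93 and -0.014 to 0.095 for Pdi at 18 days, and -0.064 to 0.104 for Xbp1 and -0.064 to 0.19 for crc at 22 days.

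Most same-numbered libraries did not deviate together (r over 0.1 in 5 of 36 pairs, median -0.04, range -0.565 to 0.532), and numbers were not used as pairs. Deviations from means of 3 libraries cannot exclude a pairing. With a replicate block, 4, 6, 0 and 3 members were called in the 4 models, beside 31.5%, 42.8%, 12.7% and 18.0% of all genes, and Hsc70-3 in neuronal full-length heads gained its call (0.15, adjusted p = 0.0276). The calls of Hsc70-3 and Gp93 at 9 days in neuronal N-terminal heads were lost (adjusted p = 0.0522 and 0.0521). The 3 libraries per group limit what can be seen.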
